A study of Mus musculus with 6 samples.

Results

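The genes described are the Toll-like receptors Tlr2, Tlr3, Tlr4 and Tlr7, the endotoxin co-receptors Cd14 and Ly96, the adaptors Myd88, Ticam1 and Ticam2, and the kinase Irak1. They were taken by symbol from the deposited expression table of 14147 genes, and 9 of the 10 have a row. Ticam2 is not analysed here. The study measured RNA in 6 libraries of cultured primary mouse astrocytes, all labelled wild type and sampled at 24 h. In 3 libraries the cells had received human IgG against aquaporin-4, the astrocyte water channel targeted in neuromyelitis optica (AQP4-IgG). The other 3 had received a human control IgG (Control-IgG). The series title also speaks of conditioned medium, so how the IgG reached the cells is not settled by the labels. Nothing in them ties the libraries to different cultures or mice. The p-values therefore rest on library-to-library spread, and this may be technical.

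Toll-like receptors are pattern-recognition receptors that sense microbial products and molecules released by damaged cells. TLR2 (with a partner receptor) senses lipoproteins and TLR4 senses endotoxin at the cell surface, whereas TLR3 and TLR7 sense double- and single-stranded RNA in endosomes. All of these except TLR3 signal through MyD88 and the IRAK kinases to NF-kB. TLR3 and internalised TLR4 use TRIF, the product of Ticam1, to reach NF-kB and the interferon regulatory factors. In the brain microglia express most of these receptors, and astrocytes are known in particular for TLR3.

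Of the 9 genes, Tlr3 alone passed the test across all genes, and it was higher with AQP4-IgG. Levels are in FPKM, that is, reads or fragments scaled by exon length and library total, so levels of different genes can be set side by side. Log2 fold changes are of log2(FPKM + 1), AQP4-IgG over Control-IgG, and understate the change of genes with low levels. limma was run over 12334 genes, and a Benjamini-Hochberg adjusted p under 0.05 passed. In that fit 1.46% of all tested genes passed as higher and 0.632% as lower, against 1 and 0 of the 9. All 9 passed the filter of a mean of at least 1 FPKM. Groups without overlap were found for Tlr3 and Myd88, with the AQP4-IgG values on top, as was the case in 10.4% of tested genes. Tlr7 had no overlap either, with the AQP4-IgG values at the bottom, as was the case in 8.58% of tested genes. The median log2 fold change of the 9 was 0.09, beside 0.00 over all tested genes.

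The order of levels put Irak1 first and Ly96 and Tlr4 last. With AQP4-IgG the means ran from 24.3 FPKM for Irak1 and 23.2 FPKM for Tlr3, through Cd14, Tlr2, Myd88 and Ticam1, to 3.29 FPKM for Tlr7, 3.01 FPKM for Ly96 and 2.89 FPKM for Tlr4. With Control-IgG the order was the same. Irak1 and Tlr3 overlapped in the AQP4-IgG libraries and lay apart in the Control-IgG libraries, where Tlr3 overlapped with Cd14 instead. Ly96 and Tlr4 overlapped in both groups, so their places are interchangeable. Recovered whole reads per library ran from 1550 to 2696 for Tlr3 but from 45 to 70 for Ly96, so the level of Ly96 carries the largest counting error among the 8 genes with recovered reads.

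**Figure D1:**
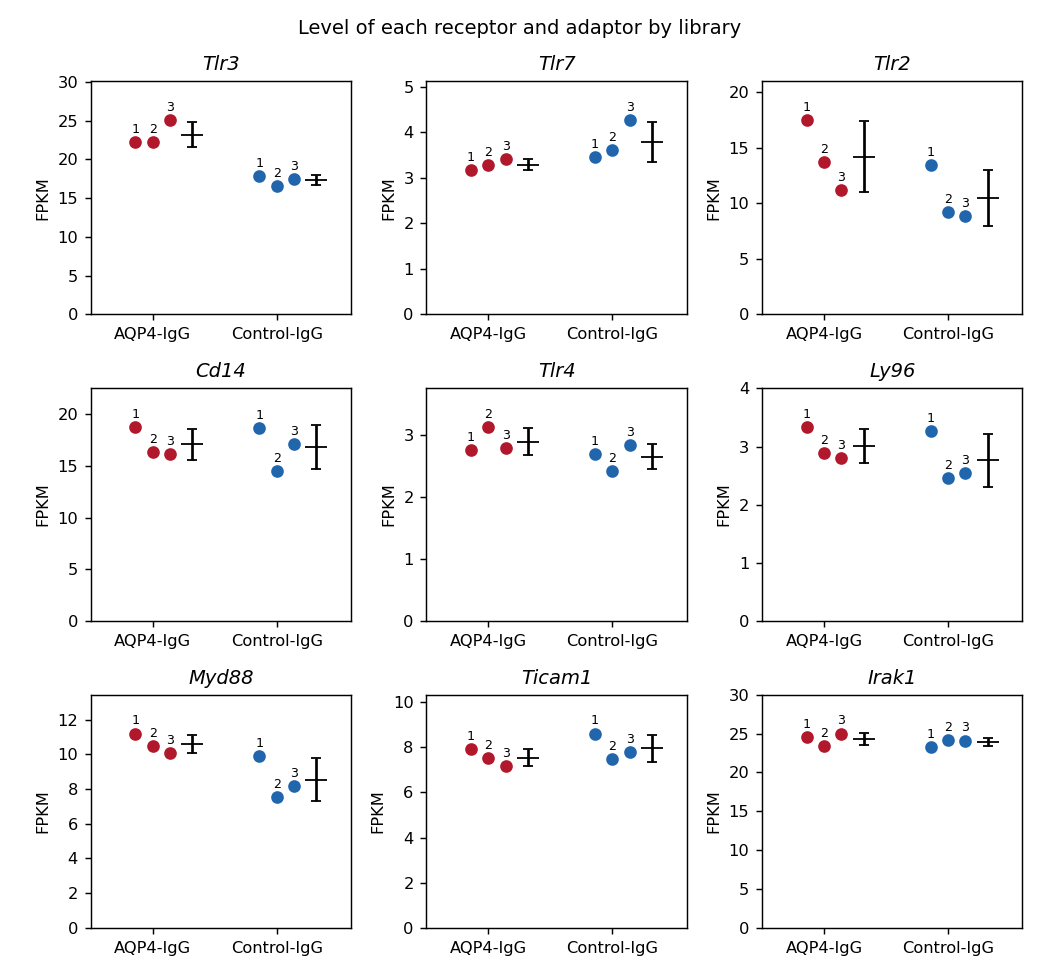
Level of each gene in FPKM (vertical axes, starting at 0) in each library, with AQP4-IgG in red and Control-IgG in blue; digits are replicate numbers and black bars are the mean and SD of 3 libraries. Tlr3 and Myd88 show no overlap with AQP4-IgG above, Tlr7 shows none with AQP4-IgG below, and the other 6 genes overlap.

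The promoters of the 3 genes with the highest log2 fold changes are shown because interferon regulatory factors and NF-kB act downstream of these receptors. They come from RefSeq in build GRCm38.p6 and run from 250 bases before to 50 bases after the annotated start. Capitals mark matches, on either strand, to AANNGAAA (the binding consensus of interferon regulatory factors), to GAAANNGAA (the core of the interferon-stimulated response element) or to the NF-kB consensus. Tlr3 lies at chr8:45410331-45410630, Tlr2 at chr3:83841559-83841858 and Myd88 at chr9:119339969-119340268, all on the minus strand.
Tlr3: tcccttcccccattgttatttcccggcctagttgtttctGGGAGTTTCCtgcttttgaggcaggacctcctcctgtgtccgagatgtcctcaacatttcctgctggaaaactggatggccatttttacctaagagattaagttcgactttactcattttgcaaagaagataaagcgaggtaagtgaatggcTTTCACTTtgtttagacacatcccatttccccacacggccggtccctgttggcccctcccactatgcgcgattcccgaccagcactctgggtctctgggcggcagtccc
Tlr2: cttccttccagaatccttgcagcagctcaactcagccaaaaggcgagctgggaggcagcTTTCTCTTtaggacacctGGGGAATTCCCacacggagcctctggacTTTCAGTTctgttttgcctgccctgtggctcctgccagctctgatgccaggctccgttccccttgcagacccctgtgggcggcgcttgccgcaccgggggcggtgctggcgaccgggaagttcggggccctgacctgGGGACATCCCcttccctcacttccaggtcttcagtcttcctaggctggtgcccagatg
Myd88: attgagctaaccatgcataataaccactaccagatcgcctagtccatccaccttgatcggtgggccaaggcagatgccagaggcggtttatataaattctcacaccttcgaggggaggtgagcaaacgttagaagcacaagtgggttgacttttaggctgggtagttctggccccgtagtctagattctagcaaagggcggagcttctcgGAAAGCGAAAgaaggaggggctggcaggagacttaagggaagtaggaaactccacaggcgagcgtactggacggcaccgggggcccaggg

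The Tlr3 window held 1 match to AANNGAAA, at -59 to -52 from the start, and 1 to the NF-kB consensus at -211 to -202. Tlr2 had 2 matches to AANNGAAA and 3 to the NF-kB consensus, of which those at -173 to -164 and -172 to -163 overlap. Myd88 held a GAAANNGAA match at -40 to -32 that overlaps an AANNGAAA match at -38 to -31 and a match to the STAT motif TTCNNNGAA at -46 to -38. Over 32544 RefSeq promoter windows of the same length, 23.9% held AANNGAAA, 8.5% GAAANNGAA, 8.3% TTCNNNGAA, 7.8% the AP-1 motif TGANTCA and 8.5% the NF-kB consensus. In the window of Ticam1, whose log2 fold change was -0.07, none of the 5 motifs was found, and that of Irak1 held the NF-kB consensus alone. No windows were searched for Tlr4, Tlr7, Cd14 or Ly96, and whether motifs go with a change was not tested. AANNGAAA was added to the search after the sequences were seen. The RefSeq starts of Tlr3, Tlr2 and Myd88 lie 700, 159 and 1393 bases inside the genes as the deposited table lists them, so other starts exist. A match is a description of letters and not evidence of binding.

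Of the receptors of RNA, Tlr3 passed and Tlr7 did not. Tlr3 (ENSMUSG00000031639, GRCm38 chromosome 8, 45395665 to 45411080, minus strand) had 22.3, 22.2 and 25.1 FPKM in AQP4-IgG libraries 1 to 3, against 17.8, 16.6 and 17.5 FPKM in Control-IgG libraries 1 to 3. The lowest AQP4-IgG library thus stood clear of the highest Control-IgG library, and the spread within each group was small, with coefficients of variation of 7.1% with AQP4-IgG and 3.7% with Control-IgG. The means were 23.2 ± 1.66 FPKM and 17.3 ± 0.645 FPKM (SD, n = 3 each), a ratio of 1.34. Tlr3 rose by a log2 fold change of 0.40 (SE 0.0571, 95% interval 0.27 to 0.53, limma adjusted p = 0.0125). The call held in 14 of 15 alternative fits and was lost without Control-IgG 2 (log2 fold change 0.37, adjusted p = 0.066). In the authors' deposited table Tlr3 has a log2 fold change of 0.40 and an adjusted p of 0.00292. An antisense transcript, Gm45542, covers 7.3% of the exon bases of Tlr3, and whether reads were counted by strand is not given, so reads of the pair cannot be told apart there.

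Tlr7 (X chromosome, 167304929 to 167330558, minus strand), the endosomal receptor for single-stranded RNA, had 3.18, 3.28 and 3.42 FPKM with AQP4-IgG, against 3.46, 3.61 and 4.27 FPKM with Control-IgG. The groups did not overlap, but the gap between them was narrow, and Control-IgG 3 stood above the rest. The log2 fold change was -0.15 (95% interval -0.33 to 0.02, limma adjusted p = 0.471). As a ratio of FPKM + 1 the interval runs from 0.80 to 1.02. Whether Tlr3 and Tlr7 differ in their change was not tested.

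Tlr2 (chromosome 3, 83836272 to 83841767, minus strand), the receptor for bacterial lipoproteins, had the same log2 fold change as Tlr3 but a far wider spread. It had 17.5, 13.7 and 11.2 FPKM in AQP4-IgG libraries 1 to 3, against 13.4, 9.22 and 8.81 FPKM in Control-IgG libraries 1 to 3. Library 1 was the highest of its group on both sides, and Control-IgG 1 lay above AQP4-IgG 3. The means were 14.2 ± 3.17 FPKM under AQP4-IgG, beside 10.5 ± 2.53 FPKM under Control-IgG, with coefficients of variation of 22.4% and 24.2%. The log2 fold change of 0.40 (SE 0.213, 95% interval -0.13 to 0.94) did not pass (limma adjusted p = 0.526). It was 0.25 without AQP4-IgG 1 and 0.58 without Control-IgG 1, with adjusted p of 0.771 and 0.209. In this fit, which takes the libraries as unpaired, the interval for Tlr2 runs from 0.91 to 1.91 as a ratio of FPKM + 1. With the replicate block, described in the closing section, Tlr2 passed (SE 0.0514, limma adjusted p = 0.00811). The replicate numbers were not taken as pairs, so the width of the interval depends on that choice.

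**Figure D2:**
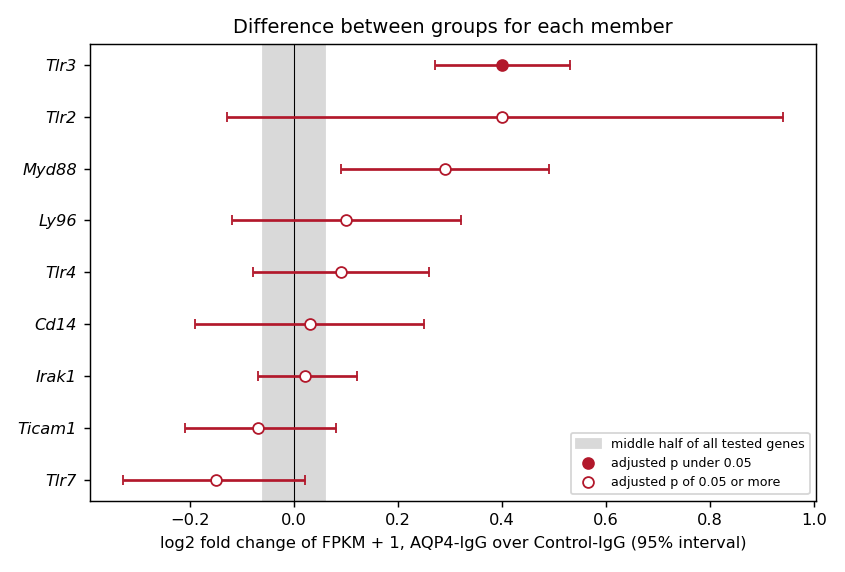
Log2 fold change of FPKM + 1, AQP4-IgG over Control-IgG (horizontal axis), for each of the 9 genes with its 95% interval from limma; the grey band is the range between the quartiles of all tested genes, -0.06 to 0.06. Tlr3 (filled point, 0.40) has the interval farthest from 0, and that of Tlr2 (0.40) is the widest.

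None of the 3 genes of the endotoxin receptor complex passed. CD14 hands endotoxin to MD-2, the product of Ly96, which sits on the ectodomain of TLR4. Cd14 (chromosome 18, 36725074 to 36726736, minus strand) was the most abundant of the 3, with 18.8, 16.4 and 16.2 FPKM with AQP4-IgG, against 18.7, 14.5 and 17.1 FPKM with Control-IgG. The libraries of the groups were interleaved, and the log2 fold change was 0.03 (95% interval -0.19 to 0.25, limma adjusted p = 0.942). Without AQP4-IgG 1 or without Control-IgG 2 its sign turned, at -0.03 and -0.06.

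Tlr4 itself (chromosome 4, 66827584 to 66930284, plus strand) had 2.75, 3.13 and 2.79 FPKM with AQP4-IgG, against 2.69, 2.42 and 2.83 FPKM with Control-IgG. The highest Control-IgG library exceeded 2 of the 3 AQP4-IgG libraries, and the log2 fold change was 0.09 (95% interval -0.08 to 0.26, limma adjusted p = 0.698). Ly96 (chromosome 1, 16688051 to 16709611, plus strand) had 3.34, 2.88 and 2.80 FPKM with AQP4-IgG, against 3.27, 2.46 and 2.54 FPKM with Control-IgG. Library 1 was again the highest on both sides, and the log2 fold change was 0.10 (95% interval -0.12 to 0.32, limma adjusted p = 0.772).

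Of the adaptors, Myd88 was higher in every AQP4-IgG library without passing the test, and Ticam1 was not. Myd88 (chromosome 9, 119335934 to 119341411, minus strand) had 11.2, 10.5 and 10.1 FPKM with AQP4-IgG, against 9.92, 7.56 and 8.17 FPKM with Control-IgG. The groups lay close together at their edges, where Control-IgG 1 stood well above the other controls. The means were 10.6 ± 0.54 FPKM and 8.55 ± 1.23 FPKM, and the log2 fold change was 0.29 (SE 0.0883, 95% interval 0.09 to 0.49, limma adjusted p = 0.178, unadjusted p = 0.0107). Without Control-IgG 1 the log2 fold change was 0.39 and the adjusted p 0.017. Without any 1 of the other libraries Myd88 did not pass, with adjusted p from 0.233 to 0.427. The lowest log2 fold change among these fits was 0.21, without Control-IgG 2. On the opposite strand 11.3% of the exon bases of Myd88 lie in exons of Acaa1a, a peroxisomal thiolase gene, so reads there are uncertain. Acaa1a averaged 12.5 ± 0.866 FPKM under AQP4-IgG, beside 12.7 ± 1.03 FPKM under Control-IgG.

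Ticam1 (chromosome 17, 56269319 to 56276786, minus strand), which encodes the adaptor TRIF, had 7.92, 7.51 and 7.17 FPKM with AQP4-IgG, against 8.61, 7.46 and 7.80 FPKM with Control-IgG. The groups overlapped in part, with Control-IgG 1 above all AQP4-IgG libraries and AQP4-IgG 3 below all Control-IgG libraries. The log2 fold change was -0.07 (95% interval -0.21 to 0.08, limma adjusted p = 0.754). Irak1 (X chromosome, 74013914 to 74023918, minus strand), the kinase recruited to MyD88, had 24.5, 23.4 and 25 FPKM with AQP4-IgG, against 23.3, 24.2 and 24.1 FPKM with Control-IgG. It was the steadiest of the 9 genes, with coefficients of variation of 3.2% with AQP4-IgG and 2.0% with Control-IgG. Its log2 fold change was 0.02 (95% interval -0.07 to 0.12, limma adjusted p = 0.895). The upper end of that interval is a ratio of FPKM + 1 of 1.09. Whether the change of Myd88 differs from those of Ticam1 and Irak1 was not tested.

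**Figure D3:**
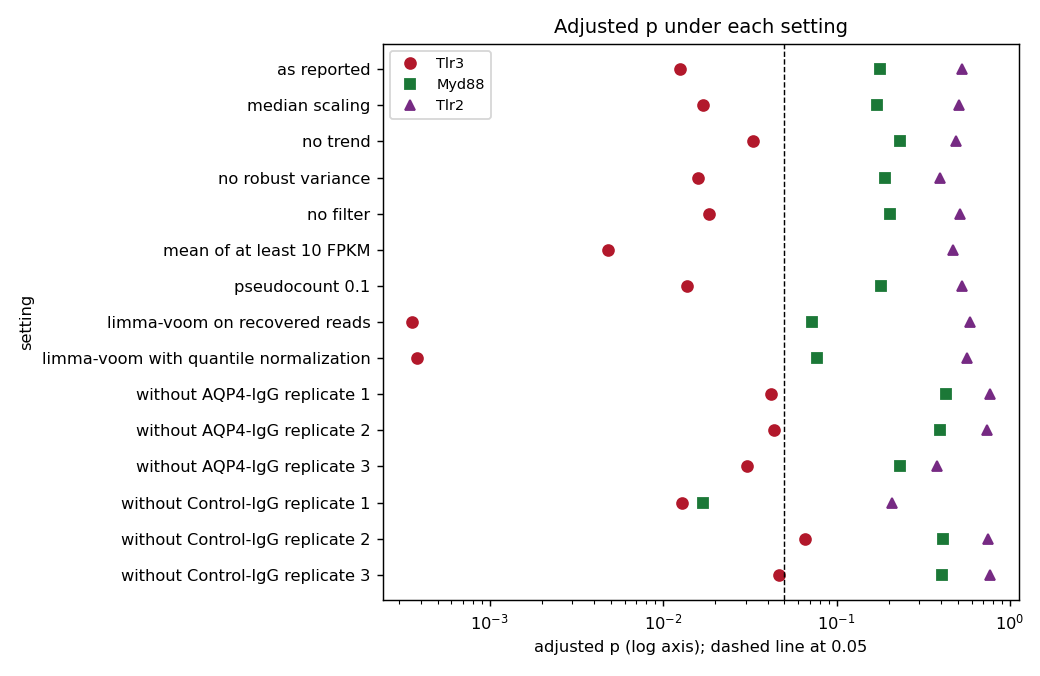
Adjusted p (horizontal log axis, dashed line at 0.05) of Tlr3, Myd88 and Tlr2 in the fit as reported and under 14 of the 15 alternative settings (rows). Myd88, with a mean of 9.58 FPKM, has no point in the row of the filter at 10 FPKM. The fit with the replicate block is not drawn, and its values, under which all 3 genes passed, stand with the other alternatives in the closing section. In the rows drawn, Tlr3 stays left of the line except without Control-IgG replicate 2 (0.066), Myd88 is left of it without Control-IgG replicate 1 (0.017), and Tlr2 is right of it in all of them.

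The libraries and the cell type markers in them are described next. Library totals were 20.4 to 20.6 M reads with AQP4-IgG and 17.9 to 20.3 M reads with Control-IgG. Astrocyte markers were abundant: 18 of the 21 in the list have a row, and Aqp4, the target of the antibody, averaged 130.5 ± 2.48 FPKM under AQP4-IgG, beside 103.9 ± 7.67 FPKM under Control-IgG. Markers of microglia and macrophages were present too, with 21 of 23 listed, Lyz2 being the most abundant at 825.3 ± 55.0 FPKM under AQP4-IgG, beside 833.3 ± 113 FPKM under Control-IgG. Of 8 lymphocyte markers 0 have a row, and of 7 neutrophil markers 1 has one, below the filter. Of 18 astrocyte markers tested 3 rose and 0 fell. The list as a whole did not shift: its median log2 fold change was -0.00, with 9 of the 18 above 0. Groups without overlap were seen for 5 of the 18 as higher and for 1 as lower with AQP4-IgG. The 3 that rose were Aqp4 and, named after their values were seen, the glutamate transporters Slc1a3 (log2 fold change 0.32) and Slc1a2 (0.35). The limma adjusted p was 0.0216 for Aqp4, 0.0304 for Slc1a3 and 0.0464 for Slc1a2. The call of Aqp4 held only without Control-IgG 1 when a library was left out, that of Slc1a3 only without AQP4-IgG 3 or Control-IgG 1, and that of Slc1a2 only without AQP4-IgG 3, with adjusted p otherwise up to 0.106, 0.14 and 0.167. Of the markers of oligodendrocytes, neurons and endothelium, 6 of 9, 3 of 7 and 3 of 6 have a row, and of the 4, 3 and 2 tested, 0 passed. Of 5 markers of fibroblasts and mural cells with a row, from 8, 1 fell, the smooth muscle actin gene Acta2, also named after its values were seen. It averaged 2133.7 ± 173 FPKM under AQP4-IgG, beside 2781.8 ± 147 FPKM under Control-IgG (limma adjusted p = 0.0243), a call lost without any 1 of AQP4-IgG 1 or 2 or Control-IgG 2 or 3 (up to 0.113). The other 4 of that list, also named after their values were seen, did not pass. Their log2 fold changes were -0.05 for Col1a1, 0.04 for Col1a2, 0.09 for Col3a1 and -0.00 for Pdgfrb. In bulk RNA, fewer cells of a type and less RNA per cell cannot be told apart.

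All but 1 of the microglia markers tested did not pass, and their summed level varied between libraries. Of 20 tested, 0 rose and 1, the fractalkine receptor Cx3cr1, fell (log2 fold change -0.51, limma adjusted p = 0.0427), a call lost in 6 of 15 alternative fits, 4 of which left out a library: AQP4-IgG 2 or 3, or Control-IgG 1 or 2. Over the 20, the median log2 fold change stood at -0.12. In 5 of them all AQP4-IgG libraries lay below all Control-IgG libraries, beside 8.58% of tested genes. In 1 they all lay above, beside 10.4% of tested genes. Of the markers of resting microglia, P2ry12 was low, at 1.26 ± 0.234 FPKM under AQP4-IgG, beside 1.29 ± 0.128 FPKM under Control-IgG. Tmem119 averaged 5.52 ± 0.372 FPKM under AQP4-IgG, beside 6.78 ± 1.59 FPKM under Control-IgG. The receptor tyrosine kinase gene Csf1r averaged 23.4 ± 1.71 FPKM under AQP4-IgG, beside 28.1 ± 3.44 FPKM under Control-IgG (limma adjusted p = 0.247). Aif1, the gene of the marker IBA1, averaged 2.47 ± 0.0229 FPKM under AQP4-IgG, beside 2.58 ± 0.639 FPKM under Control-IgG. Itgam, the integrin chain CD11b, stood against this trend at 4.69 ± 0.372 FPKM under AQP4-IgG, beside 3.45 ± 0.384 FPKM under Control-IgG (limma adjusted p = 0.0707), and passed without Control-IgG 1 and in both limma-voom fits. It also passed with the replicate block described in the closing section (limma adjusted p = 0.0179).

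Summed without Lyz2, the microglia markers came to 562.0, 503.2 and 514.7 FPKM in AQP4-IgG libraries 1 to 3, against 684.3, 550.4 and 537.7 FPKM in Control-IgG libraries 1 to 3. Library 1 was the highest in both groups, as it was for Tlr2, Cd14, Ly96, Myd88 and Ticam1. Control-IgG 1 was the highest control library for 6 of the 9 genes, beside 39.1% of all tested genes, and AQP4-IgG 1 the highest of its group for 5 of 9, beside 40.1%. Tlr3 and Myd88 stood higher with AQP4-IgG while the mean of the marker list, relative to the Control-IgG mean, was -0.04, -0.18 and -0.13 log2 units in AQP4-IgG libraries 1 to 3, against 0.21, -0.09 and -0.12 in Control-IgG libraries 1 to 3. Control-IgG 2 and 3 lay within the range of the AQP4-IgG libraries, and Control-IgG 1 stood above all others. The part of myeloid cells in the level of any of the 9 genes was not tested.

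**Figure D4:**
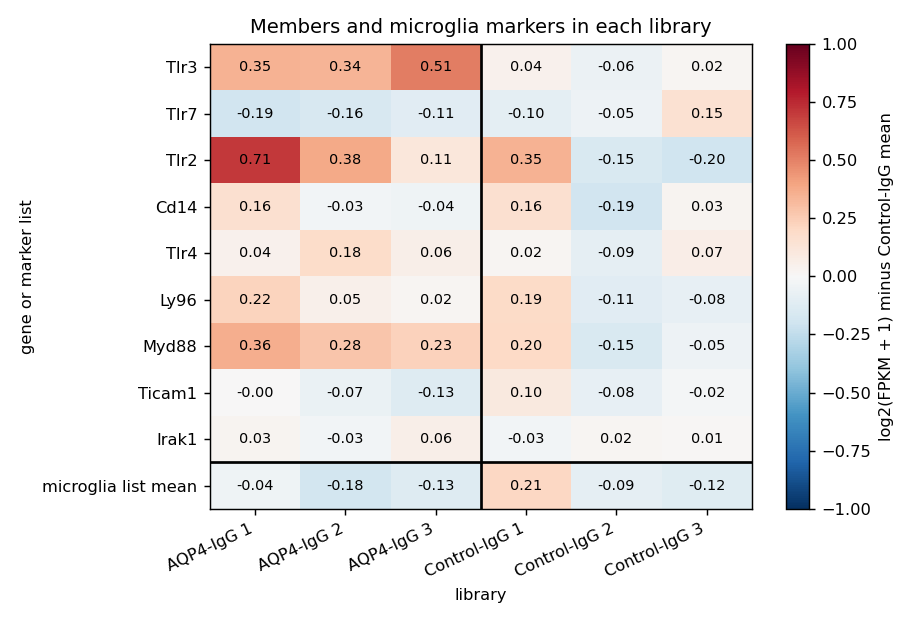
Log2(FPKM + 1) of each gene in each library minus the mean of the Control-IgG libraries (colour and printed values), with the mean of 21 microglia and macrophage markers in the bottom row. Tlr3 is at 0.34 to 0.51 in the AQP4-IgG libraries, Tlr2 ranges from 0.11 to 0.71 there, and Control-IgG 1 is at 0.21 for the marker list.

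Most other genes of the pathway did not pass, and those that did were all higher with AQP4-IgG. Outside the 9 genes, 71 pathway genes were tested, and 7 rose and 0 fell, with a median log2 fold change of 0.08. The share of all tested genes that rose was the 1.46% given above. The lists were chosen with earlier results of these data known, so setting the count beside this share is a description and not a test. Leaving out genes that stand only in the readout lists, 54 were tested, 3 rose and 0 fell, with a median of 0.03. The 3 were Cd36, Lbp and Irf7, which stands both among the interferon regulatory factors and among the readouts. The count of 7 hung on single libraries. Leaving out AQP4-IgG 1, 2 or 3 gave 2, 0 or 4 genes, and leaving out Control-IgG 1, 2 or 3 gave 17, 1 or 3.

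Of the other receptors of the family, 3 were tested and 0 passed. Tlr13, a mouse receptor for bacterial ribosomal RNA, averaged 3.73 ± 0.348 FPKM under AQP4-IgG, beside 4.20 ± 0.37 FPKM under Control-IgG (limma adjusted p = 0.539). Tlr1 and Tlr6, which pair with TLR2, and Tlr9 lay below the filter, and Tlr5, Tlr11 and Tlr12 are not analysed here.

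Genes that deliver ligands gave the calls nearest to the receptors. Of 7 tested, 2 rose and 0 fell. Cd36, a scavenger receptor that serves TLR2 as a co-receptor, had 4.71, 4.96 and 3.47 FPKM with AQP4-IgG, against 2.49, 2.49 and 2.36 FPKM with Control-IgG (ratio of means 1.79, log2 fold change 0.63, limma adjusted p = 0.0229). Lbp, the endotoxin-binding protein that loads CD14, had 3.01, 2.65 and 2.19 FPKM with AQP4-IgG, against 1.78, 1.36 and 1.48 FPKM with Control-IgG (ratio 1.70, log2 fold change 0.51, limma adjusted p = 0.0478). In both genes all AQP4-IgG libraries exceeded all Control-IgG libraries. The call of Lbp was lost in 7 of 14 alternative fits and that of Cd36 in 4 of 14. Adjusted p reached 0.172 for Lbp without Control-IgG 2 and 0.109 for Cd36 without AQP4-IgG 1. Each call was also lost without AQP4-IgG 2 and without Control-IgG 3, that of Lbp without AQP4-IgG 1 and that of Cd36 without Control-IgG 2.

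None of the genes for folding and trafficking, for the MyD88 branch or for inhibition passed, with 11, 15 and 9 tested. The smallest p in each belonged to a gene with a small difference. Hsp90b1, the chaperone gp96 that folds the receptors, averaged 88.6 ± 2.8 FPKM under AQP4-IgG, beside 79.9 ± 3.34 FPKM under Control-IgG (limma adjusted p = 0.165). Nfkb1, an NF-kB subunit, averaged 5.79 ± 0.439 FPKM under AQP4-IgG, beside 5.02 ± 0.481 FPKM under Control-IgG (limma adjusted p = 0.377). Trafd1, a feedback inhibitor of Toll-like receptor signalling, averaged 13.1 ± 0.48 FPKM under AQP4-IgG, beside 10.8 ± 1.12 FPKM under Control-IgG (limma adjusted p = 0.122). Trafd1 passed without Control-IgG 1 (0.0159), in limma-voom on recovered reads (0.0281) and with quantile normalization (0.0399). It also passed with the replicate block described in the closing section (0.0481). The medians of these lists were 0.07, 0.01 and -0.03.

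In the TRIF branch with the interferon regulatory factors, 1 of 9 rose and 0 fell. That gene was Irf7, the interferon-inducible regulator of the interferon response, at 16.0 ± 2.34 FPKM under AQP4-IgG, beside 4.21 ± 1.15 FPKM under Control-IgG (ratio 3.79, log2 fold change 1.72, limma adjusted p = 0.00984). Its call was lost without AQP4-IgG 2 (0.0575) and without Control-IgG 2 (0.0587). The median of that list was 0.08, against 1.72 for Irf7.

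Genes known to respond to these receptors, which also respond to other stimuli, differed more. Of 10 NF-kB readouts 1 rose and 0 fell, the adhesion molecule Icam1 (15.4 ± 2.09 FPKM under AQP4-IgG, beside 7.68 ± 1.71 FPKM under Control-IgG, limma adjusted p = 0.0403). Its call was lost without any 1 of AQP4-IgG 1, 2 or 3 or Control-IgG 2 or 3, with adjusted p up to 0.156. Of 8 interferon readouts 4 rose and 0 fell: Isg15 (ratio 4.52), Ifit3 (4.02), Irf7 and, named after its values were seen, Ifit1 (3.49). Ifit3 lost its call without any 1 of AQP4-IgG 1, 2 or 3 or Control-IgG 2 (up to 0.103), and Isg15 without AQP4-IgG 2 (0.0562). Ifit1 lost its call without any 1 library other than Control-IgG 1 (up to 0.129). The limma adjusted p was 0.00874 for Isg15, 0.016 for Ifit3 and 0.0243 for Ifit1. The median log2 fold change was 0.66 for the NF-kB readouts and 1.68 for the interferon readouts. That of Tlr3, 0.40, was below both medians. No test set the lists against each other, and they were chosen with earlier results of these data known.

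**Figure D5:**
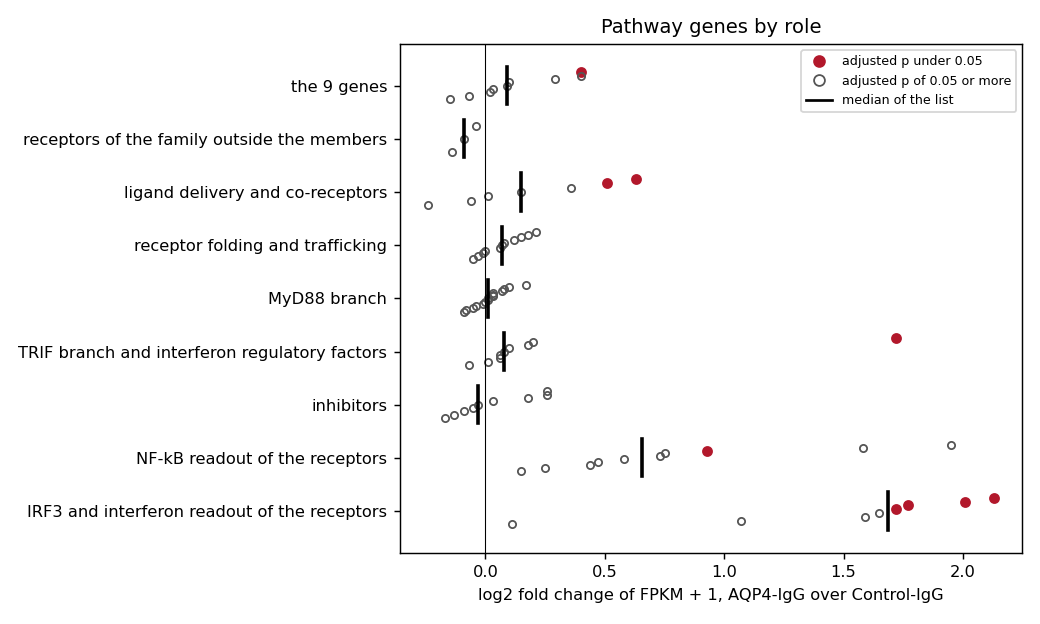
Log2 fold change of FPKM + 1, AQP4-IgG over Control-IgG, for each tested gene of the pathway by role (rows, with the 9 genes themselves in the top row; Irf7 stands in 2 rows), with filled points for an adjusted p under 0.05 and a bar at the median of each row. Medians lie between -0.09 and 0.15 in every row above the readouts and at 0.66 and 1.68 in the readout rows.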

How the data were processed

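RNA of 3 AQP4-IgG and 3 Control-IgG libraries was sequenced, with a SMARTER mRNA library kit per the labels' protocols. The submitters' processing notes name GRCm38 and mm10. Aligner, counting tool and strand use were not given in the sources used here. The authors deposited FPKM values, a unit inferred from the values: times the union exon length in GENCODE M21, 99.00% to 99.15% of values under 200 reads were whole within 0.1 reads of 1 step per library. The authors also deposited their log2 fold changes with p-values, made by a method not stated. No listed gene has both group means below 0.5 FPKM. The columns headed as cases were taken as AQP4-IgG, since the design has 2 groups.

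limma 3.58.1 in R 4.3.3, with trend and robust variance, was fitted to log2(FPKM + 1) of the 12334 genes averaging 1 FPKM or more, leaving out 1813. Group was the only term. The fit was also run on simulated data in which every gene had the same small spread beyond counting noise. Such data do not show how the fit treats genes as variable as Tlr2. Alternatives were median scaling, no trend, no robust variance, no filter, a filter at 10 FPKM, 0.1 as pseudocount, a replicate block, limma-voom on recovered reads with and without quantile normalization, and leaving out each library. Cd14 has other coordinates in M21 and no recovered reads. Libraries of a group differed beyond sampling noise, with a chi-square per gene of 3.70 to 6.78. Exact permutation of 3 against 3 libraries was not used, since its smallest p is 0.1. The labels give no batch.

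Besides the 10 genes, the text names from each pathway list up to 3 genes past the threshold with the smallest p, or else the 1 with the smallest p, and Cx3cr1, P2ry12, Tmem119, Csf1r, Itgam, Aif1 and Lyz2. For each of the genes past the threshold or with a mean of at least 5 FPKM, the most similar gene over the 6 libraries is named. Genes and lists were chosen with earlier results of these data known.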

Additional observations from a re-analysis of the deposited data

How the results depend on the processing

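Of 128 values of the 9 genes under the alternatives, 122 kept their direction and side of the threshold, 1 lost the call, 3 gained one and 2 turned sign. Of the 9 genes 1 passed as reported, 3 with the replicate block and 0 to 2 with a library left out. Over all genes, 258 passed as reported, 498 in limma-voom on recovered reads and 486 with quantile normalization, and 55 to 391 with a library left out. The count of 7 pathway genes was 11 in limma-voom on recovered reads, 11 with quantile normalization and 0 to 17 with a library left out. The count of 1 microglia marker was 2 and 3 in these limma-voom fits, 0 without the trend, 0 without the filter and 0 to 1 with a library left out. These counts mix directions: both limma-voom fits held Itgam as higher beside Cx3cr1 as lower. Without Control-IgG 1 the 1 marker was Itgam, as higher, and not Cx3cr1. Values that turned sign with a library left out lay near 0: Cd14 (-0.06 to 0.11, with -0.03 without AQP4-IgG 1), P2ry12 (range -0.10 to 0.04, with 0.02 without Control-IgG 1), Aif1 (-0.12 to 0.11) and Lyz2 (-0.08 to 0.10, with 0.04 without AQP4-IgG 2). The causes were not tested.

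The groups share replicate numbers, but same-numbered libraries deviated together with r of 0.20, 0.01 and 0.20 for numbers 1, 2 and 3, so the numbers were not taken as pairs, and not every library was closest to its own number. With the replicate block 607 genes passed, as did 17 pathway genes and 4 microglia markers (1 higher and 3 lower). Tlr3, Tlr2 and Myd88 then passed, with limma adjusted p of 0.00524, 0.00811 and 0.0445. Depth limits Ly96 most, with 45 to 70 reads per library.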

Other observations

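The gene with the pattern nearest to that of a receptor or adaptor was sought by Pearson's r of log2(FPKM + 1) over the 6 libraries, which share their library totals. It is a description with no p: over 12333 other genes, 57 had an r over 0.95 with Tlr3, 111 with Tlr2 and 144 with Myd88. Sox7, a transcription factor known from endothelium, was nearest to Tlr3 (r = 0.9938), with 3.21, 3.09 and 3.41 FPKM with AQP4-IgG, against 2.43, 2.25 and 2.40 FPKM with Control-IgG. Slfn2, an interferon-inducible Schlafen gene, was nearest to Myd88 (r = 0.9970), with 11.5, 9.55 and 8.66 FPKM with AQP4-IgG, against 8.24, 4.26 and 4.79 FPKM with Control-IgG. In Slfn2, as in Myd88, Control-IgG 1 stood above the other controls. Katnal2 was nearest to Tlr2 (r = 0.9957), Pnmal2 to Cd14 (r = 0.9966), Mettl3 to Ticam1 (r = 0.9927) and Gm14794 to Irak1 (r = 0.9809).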
